A study of Mus musculus with 6 samples.

Results

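The genes described here make up the MHC class I and class II antigen presentation machinery, measured in colon tissue with tumors from mice with colitis-associated colon cancer. A probe was a member when its gene name on the array started with H2- or was one of B2m, Tap1, Tap2, Tapbp, Tapbpl, Psmb8, Psmb9, Psmb10, Psme1, Erap1, Nlrc5, Ciita, Cd74, Ctss, Ifi30 and Cd1d1. The rule also asked for Psme2, for which the array had 0 probes of that name. It found 58 gene names on 95 probes, of 37074 gene names on 56605 gene probes in all. Of the 58 names, 42 belonged to class I, 14 to class II, and Cd1d1 and H2-Ke6 to neither. A gene entered the test if all 3 arrays of 1 group or the other read a probe of it well above background, and 44 of the 58 did.

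All mice were C57BL/6 mice injected with azoxymethane (AOM, 10 μg/g) and given 2% dextran sodium sulfate (DSS) in the drinking water. The RG@M-γ-CD group received, by mouth, channel-type nanoparticles of regorafenib (RG, a multi-kinase inhibitor) held in mannose-modified γ-cyclodextrin at 30 μg/g, equal to 10 μg/g of RG, and the control group received PBS. Treatment lasted 21 days and was followed by 14 days of observation. Each group had 3 one-color Agilent arrays, from independent mice by the study's description, although the labels do not name the animals. A level is log2 of the processed intensity minus the 75th percentile of that array, and a change is the mean level of RG@M-γ-CD minus that of PBS, with the standard error (SE) of the limma fit over 19090 genes. The number of arrays limits the precision: the SE of the members' changes had a range from 0.15 to 0.86.

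Across all genes, RG@M-γ-CD replicate 2 stood furthest apart, with correlations of 0.941 to 0.977 with the other arrays. RG@M-γ-CD replicate 1 correlated most with PBS replicates 3 and 2 (r = 0.987 and 0.985), and in the study's own clustering it lay beside these while PBS replicate 1 lay beside the other RG@M-γ-CD arrays. The labels were used as given, and the results that rest on these arrays are given without them or with the labels of both exchanged. All arrays were on 1 slide, the first row of which held the RG@M-γ-CD arrays and PBS replicate 1. No gene of the 19090 passed an adjusted p of 0.05, so 0% of genes were called, and the adjusted p of every member was 1.0 (limma, Benjamini-Hochberg). Leaving out RG@M-γ-CD replicate 1 took this count from 0 to 168 genes (0.88%), with 0 members among them and a lowest adjusted p of 0.204 for a member. No other array, left out alone, gave a gene past that threshold. At an unadjusted p under 0.05, 1.33% of all genes were lower and 0.864% higher, and in 2.19% the groups did not overlap with RG@M-γ-CD as the lower one, in 2.38% as the higher one.

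MHC class I molecules sit on most nucleated cells and show peptides of the cell's own proteins to CD8 T cells. Each is a heavy chain (H2-K1 and H2-D1 in this strain) bound to B2m, loaded in the endoplasmic reticulum with peptides that the immunoproteasome (Psmb8, Psmb9, Psmb10) cut and the TAP transporter carried in. MHC class II molecules are an alpha and a beta chain (H2-Aa with H2-Ab1 in C57BL/6), made mainly by dendritic cells, B cells and macrophages, and by epithelium under interferon gamma. They show peptides of engulfed material to CD4 T cells. Cd74, the invariant chain, guards their groove, Ctss and Ifi30 act in the endosome, and H2-DM, held back by H2-O in B cells, exchanges the peptide. Nlrc5 and Ciita are the transactivators of class I and class II genes, and act through a promoter module of an X box and a Y box.

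The promoter module is shown first, because some genes of both class I and class II carry it. In the RefSeq promoters (build GRCm38.p6, 250 bases before to 50 bases after the start), 40 of the 58 members matched an entry. The letters searched on both strands were ACNGATG for the X1 core and ATTGG for the Y core, which share no bases in the matches shown. Both lay within 40 bases of each other in 0.983% of the 32851 promoters, in 4 of 10 class II genes and in 6 of 29 class I genes. In H2-Aa the cores lay farther apart than that, and H2-DMa had no X1 core. H2-Ab1, Cd74 and Ciita matched no entry. The stretches are written 5′ to 3′ on the gene's strand, with the cores in capitals, and all lie upstream of the start.

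H2-Eb1, chr17:34305769-34305822, plus strand: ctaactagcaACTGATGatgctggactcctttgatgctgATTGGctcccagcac
H2-Eb2, chr17:34325536-34325589, plus strand: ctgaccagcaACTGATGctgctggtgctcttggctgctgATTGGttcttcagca
H2-DMb1, chr17:34153090-34153144, plus strand: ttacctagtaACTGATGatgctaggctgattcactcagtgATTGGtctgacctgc
H2-DMb2, chr17:34145119-34145173, plus strand: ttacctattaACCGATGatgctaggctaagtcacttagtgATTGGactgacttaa
H2-D1, chr17:35262978-35263032, plus strand: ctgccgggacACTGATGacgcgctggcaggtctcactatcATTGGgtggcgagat
H2-Q4, chr17:35379498-35379552, plus strand: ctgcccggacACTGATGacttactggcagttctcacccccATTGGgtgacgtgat
H2-Q7, chr17:35439076-35439129, plus strand: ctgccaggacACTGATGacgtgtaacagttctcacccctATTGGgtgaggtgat

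In these 7 genes the Y core began 29 or 30 bases after the X1 core. H2-M3 also had a Y core 30 bases after the X1 core on the same strand. In H2-M2 and H2-M3 a Y core on the opposite strand lay 15 bases after the X1 core. In H2-M10.4 both cores were on the opposite strand, the X1 core 60 and the Y core 77 bases before the start. Each core was also counted by itself, whether or not the other was present. The X1 core was in 9.85% of all promoters, in 7 of 10 class II genes and in 13 of 29 class I genes. The Y core was in 37.4%, 8 of 10 and 22 of 29 of these. The letters GAAANNGAA of an interferon response element were in 8.56% of all promoters, in 5 of 29 class I genes and in 1 of 10 class II genes. In B2m the interferon element lay 139 bases before the start and in Ctss 21 bases before it:

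B2m, chr2:122147538-122147566, plus strand: ataagaacatGAAACTGAAaatgggaaag
Ctss, chr3:95526755-95526783, plus strand: gtctttaaatGAAACCGAAatgaaagttc

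The classical class II chains and the invariant chain were lower in RG@M-γ-CD than in PBS, with every treated array below every control array. Of 12 class II genes tested, 5 had groups that did not overlap, with RG@M-γ-CD the lower (Cd74, H2-Aa, H2-Ab1, H2-Eb1 and H2-DMa), against 2.19% of all genes, and the same 5 had an unadjusted p under 0.05 (1.33% of all genes). None of the 5 passed after adjustment. Their levels in RG@M-γ-CD were 60.9% to 67.6% of those in PBS, and the median change over the 12 genes was -0.52, beside -0.01 over all genes. The count under an unadjusted p of 0.05 moved with single arrays: it was 3 without RG@M-γ-CD replicate 1 (where 5.66% of all genes were lower under that threshold), 2 without replicate 2, 1 without replicate 3, 1 without PBS replicate 1 and 8 without PBS replicate 3. It was 2 with quantile normalization, 2 in the deposited value table, 2 by the methods' t-test and 3 with no filter on dim probes. The median was -0.22 without PBS replicate 1 and -0.78 without PBS replicate 3.

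Cd74 read 4.22, 3.98 and 4.03 on RG@M-γ-CD replicates 1 to 3, and 5.11, 4.56 and 4.71 on PBS replicates 1 to 3. The groups were apart by more than the spread within RG@M-γ-CD (SD 0.13, n = 3), while PBS varied more (SD 0.28, n = 3). The change of -0.72 (SE 0.19) had the lowest unadjusted p of the members, 0.00912 by limma.

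The alpha chain H2-Aa had levels of 0.86, 0.62 and 0.56 in RG@M-γ-CD and of 1.84, 1.21 and 0.97 in PBS. Its partner H2-Ab1, the beta chain, read 4.98, 4.90 and 4.88 against 5.88, 5.25 and 5.32. For both genes the RG@M-γ-CD arrays lay close together (SD 0.15 and 0.05, n = 3) while PBS replicate 1 was well above the other PBS arrays (SD 0.45 and 0.34, n = 3). The changes were -0.66 (SE 0.25, unadjusted p = 0.0381, limma) and -0.56 (SE 0.21, unadjusted p = 0.0317, limma).

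H2-Ab1 had 4 probes, all well above background on 6 arrays, and on each the highest RG@M-γ-CD array lay under the lowest PBS array, with changes from -0.68 to -0.52. These probes read the same RNA, so they check the measurement and are not further samples. One pair of them overlapped over 51 bases with 1 mismatch. Among the others no overlap of at least 30 bases was found, and shorter overlaps were not searched. The first 30 bases of each 60-base probe are shown, as the gene's own evidence, and for the other chains beside them.

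H2-Ab1 probe with a change of -0.56: tagtaaaccaatgtatgcttatccccacct
H2-Ab1 probe with a change of -0.52, overlapping it: aatgtatgcttatccccacctagattacaa
H2-Ab1 probe with a change of -0.53: agtgttttgactcagttgactgtctcagac
H2-Ab1 probe with a change of -0.68: agatttctacccagccaagatcaaagtgcg
H2-Aa probe: tttggccaattggcaagctttgacccccaa
H2-Eb1 probe: ggcacttctgagccagtctgctgtcatatg
H2-DMa probe: ggaagtgagcccgaagcttgaaggtcaaat
H2-Ea-ps probe: tgtttgactttgacggcgatgagattttcc

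The beta chain H2-Eb1 read 4.67, 4.70 and 4.55 in RG@M-γ-CD and 5.68, 5.03 and 4.95 in PBS, a change of -0.58 (SE 0.23, unadjusted p = 0.0404, limma). Its alpha chain partner is a gene with a promoter deletion in C57BL/6, named H2-Ea-ps on the array. That probe was well above background on 0 of 6 arrays, which matches the strain that the study states. H2-Eb1 RNA was thus read in mice in which its partner was not detected.

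H2-DMa, a chain of the peptide exchanger, read -1.17, -1.39 and -1.38 in RG@M-γ-CD and -0.08, -0.96 and -0.94 in PBS. The groups did not overlap, but the change of -0.65 (SE 0.27, unadjusted p = 0.0496, limma) took much of its size from PBS replicate 1. Its partner H2-DMb1 read 1.64, 2.21 and 1.66 against 2.50, 1.95 and 2.20, so RG@M-γ-CD replicate 2 lay among the PBS arrays (change -0.37, SE 0.24). H2-DMb2 was well above background on 3 of 6 arrays and was not tested. Its levels were -5.08, -4.56 and -3.82 in RG@M-γ-CD and -2.76, -3.75 and -6.48 in PBS.

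**Figure D1:**
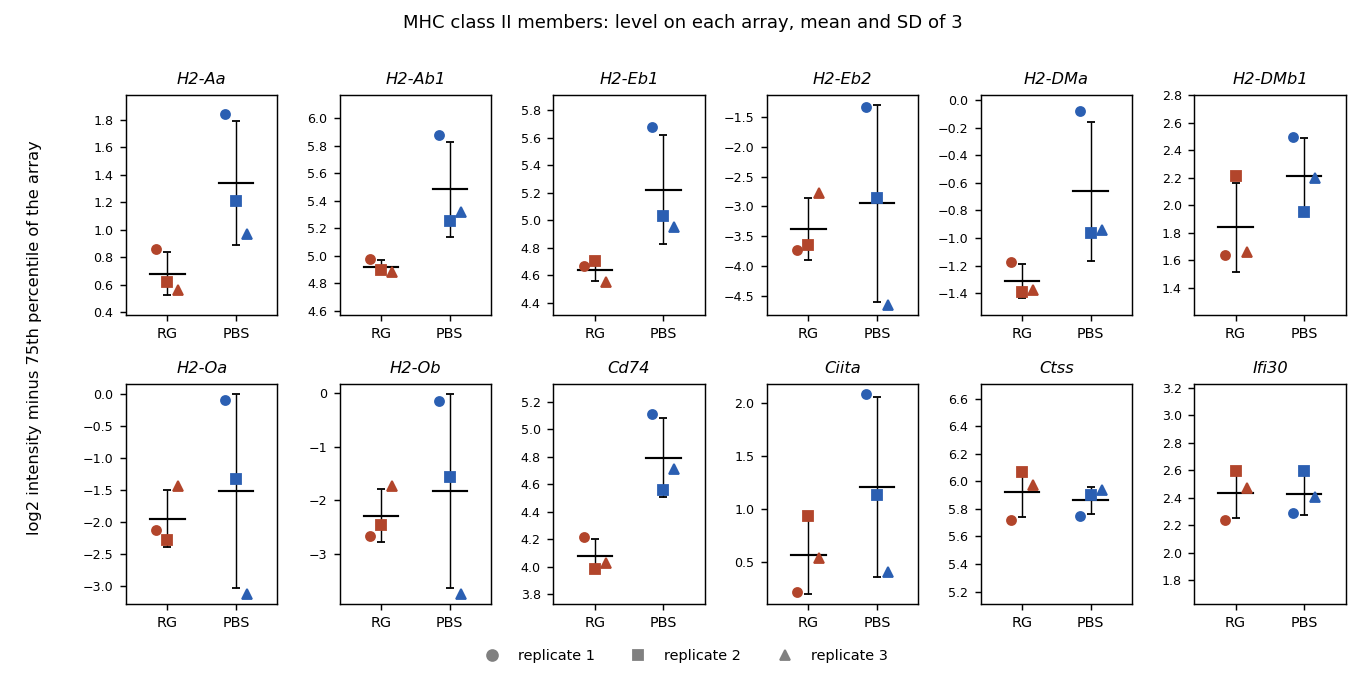
Level of 12 MHC class II genes on each array (log2 intensity minus the 75th percentile of the array, each panel with its own axis), by group, with the symbol giving the replicate number, a bar at the mean and whiskers of 1 SD of 3 arrays. In H2-Aa, H2-Ab1, H2-Eb1, H2-DMa and Cd74 every RG@M-γ-CD point lies under every PBS point, in Ctss and Ifi30 the groups lie on each other, and PBS replicate 1 is the highest point in 10 of the 12.

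The endosomal enzymes of the same pathway had changes near 0. Ctss, the cathepsin that trims Cd74, read 5.72, 6.07 and 5.98 in RG@M-γ-CD and 5.75, 5.90 and 5.94 in PBS (change 0.06, 95% interval -0.33 to 0.45). Ifi30, a lysosomal thiol reductase, read 2.24, 2.60 and 2.47 against 2.29, 2.59 and 2.41 (change 0.01, 95% interval -0.41 to 0.42). For both genes the groups overlapped, and the intervals leave out changes of the size of Cd74.

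The transactivator Ciita read 0.22, 0.94 and 0.54 in RG@M-γ-CD and 2.09, 1.14 and 0.40 in PBS. PBS replicate 3 lay within the RG@M-γ-CD arrays and PBS replicate 1 far above all others. The change of -0.65 (SE 0.44, unadjusted p = 0.188, limma) was similar in size to that of the chains with a wider spread. Another Ciita probe well above background on 6 arrays gave -0.61.

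The class II genes known best from B cells were the most variable of the class, and their order over the arrays was another. H2-Oa and H2-Ob form the inhibitor of H2-DM in B cells, and H2-Eb2 is a further beta chain gene. H2-Oa read -2.12, -2.27 and -1.44 in RG@M-γ-CD and -0.09, -1.31 and -3.12 in PBS. H2-Ob read -2.67, -2.45 and -1.73 against -0.15, -1.56 and -3.75. H2-Eb2 read -3.72, -3.65 and -2.78 against -1.33, -2.86 and -4.65, and was well above background on 5 of 6 arrays. In each of the 3 genes PBS held both the highest array (replicate 1) and the lowest (replicate 3), the SD within PBS was 1.52 to 1.81 (n = 3), and the changes of -0.47 to -0.43 lay far within it (SE 0.73 to 0.86). Without PBS replicate 3, H2-Oa had a change of -1.24 (unadjusted p = 0.0362, limma), H2-Ob of -1.43 (0.0325), Ciita of -1.05 (0.0342) and H2-Eb2 of -1.29 (0.0569). This array was the lowest of all in H2-Oa, H2-Ob and H2-Eb2, and the lowest PBS array in Ciita. Leaving it out therefore lowers the changes of all these genes by construction.

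B cell markers had that order too. Of 7 such genes 4 were tested (Cd79b, Ms4a1, Cd22 and Cr2), and Cd79a, Pax5 and Blk were too dim on both groups. The mean level of these 4 was -1.34, -0.96 and -0.43 in RG@M-γ-CD and 1.32, 0.04 and -2.40 in PBS. Ms4a1, a surface protein of mature B cells, ran from 1.91 on PBS replicate 1 to -2.16 on PBS replicate 3. In bulk tissue, fewer cells of a type and less RNA per cell cannot be told apart. The part of B cells in the class II changes was not tested. PBS replicate 3, the array lowest in B cell markers, was above the RG@M-γ-CD arrays in Cd74, H2-Aa, H2-Ab1, H2-Eb1 and H2-DMa. These are the genes whose groups did not overlap, so this holds for every PBS array by selection. In H2-Oa, H2-Ob and H2-Eb2 the same array was the lowest of all.

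**Figure D2:**
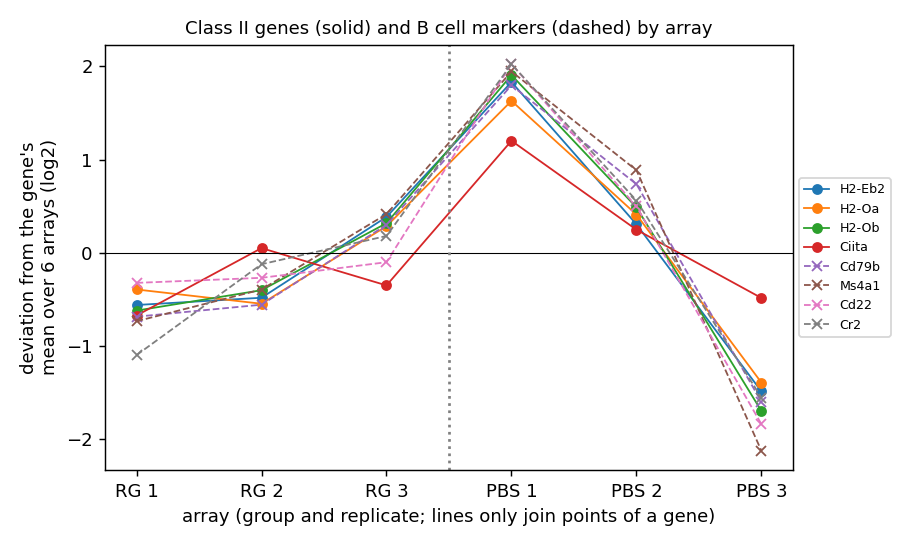
Deviation of each gene's level from its own mean over 6 arrays (log2), by array, for the class II genes H2-Eb2, H2-Oa, H2-Ob and Ciita (solid lines, circles) and the 4 tested B cell markers (dashed lines, crosses); lines only join the points of a gene. All 8 genes have their highest value on PBS replicate 1, and all but Ciita their lowest on PBS replicate 3.

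Markers of other cells that make class II were also lower on average. So were lists of cells not named above as makers of class II, such as T cells and neutrophils (median changes of -0.63 and -1.75). The lists for smooth muscle and endothelium were higher (0.95 and 0.32). The dendritic cell list had 4 of 8 genes tested (Flt3, Itgax, Ccr7 and Batf3; Zbtb46, Xcr1, Clec9a and Cd209a were too dim), and all 4 were lower. Its mean level was -1.68 to -1.13 in RG@M-γ-CD and -1.01 to -0.22 in PBS, with no overlap. Ccr7, the receptor that takes dendritic cells to lymph nodes, read -0.06, -1.01 and -0.82 against 1.35, 0.85 and 0.31 (change -1.47, SE 0.36, unadjusted p = 0.00523, limma). Flt3, the receptor for a dendritic cell growth factor, had a change of -0.68 (SE 0.24, unadjusted p = 0.0277, limma), also with no overlap. Both genes are among the 1.33% of genes lower at that threshold, and neither passed after adjustment.

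The macrophage list (9 of 9 tested) had 8 genes lower and 1 higher, with a median change of -0.41. In it 0 genes had an unadjusted p under 0.05, against 1.33% of all genes lower and 0.864% higher. Its mean level was 1.17, 0.38 and 0.23 in RG@M-γ-CD and 1.08, 0.78 and 0.99 in PBS, with the highest value on RG@M-γ-CD replicate 1 and the groups overlapping. The list for colon epithelium (9 of 9 tested) had a median change of 0.01 and mean levels of 5.14 to 5.78 in RG@M-γ-CD and 4.98 to 5.78 in PBS. The part of these cell types in the class II values was not tested.

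Class I genes lay within the spread of the arrays. Of 30 class I genes tested, 0 had groups that did not overlap, against 2.19% of all genes lower and 2.38% higher. In 0 of them the unadjusted p was under 0.05, against 1.33% of all genes lower and 0.864% higher. With shares this small, a count of 0 in 30 does not set class I apart from other genes. The sign was below 0 in 29 of the 30, against 52.8% of all genes, with a median change of -0.11, and 24 of the 30 were within 0.25 of 0. The genes share arrays and in part transcripts, so their shared sign is not 30 separate observations. With RG@M-γ-CD replicate 1 left out, 19 of the 30 were below 0.

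Among the classical heavy chains, H2-K1 read 6.81, 7.41 and 7.10 in RG@M-γ-CD and 7.15, 7.17 and 7.32 in PBS (change -0.11, 95% interval -0.58 to 0.37). H2-D1 read 5.49, 5.80 and 5.45 against 5.68, 5.57 and 5.92 (change -0.14, 95% interval -0.57 to 0.29). For both genes 2 of the 3 RG@M-γ-CD arrays lay below every PBS array, and replicate 2 lay above PBS arrays. H2-L read 5.29, 5.79 and 5.32 against 5.48, 5.48 and 5.65. The H2-L probes also list the H2-D1 transcript, and the RefSeq table of C57BL/6J has no H2-L entry, so this signal cannot be kept apart from H2-D1.

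B2m, the light chain of every class I molecule, read 5.04, 5.50 and 5.33 in RG@M-γ-CD and 5.47, 5.29 and 5.75 in PBS (change -0.21, 95% interval -0.70 to 0.27). The intervals of H2-K1, H2-D1 and B2m all reach below -0.5, so a fall of the size seen in class II chains was not excluded for them.

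The peptide supply genes varied more, in an order of their own. Tap1, a chain of the peptide transporter, read 0.78, 1.96 and 1.39 in RG@M-γ-CD and 2.33, 1.28 and 1.94 in PBS (change -0.47, SE 0.38). Tap2, its other chain, read 2.58, 3.49 and 2.88 against 3.12, 2.84 and 3.30 (change -0.10, SE 0.27). RG@M-γ-CD replicate 1 was lowest for both, and PBS replicate 2 was lowest of the PBS arrays. Psmb8 read 2.32, 2.79 and 2.12 against 2.97, 2.35 and 2.89 (change -0.32, SE 0.26). Psmb9 read 2.19, 3.02 and 2.44 against 2.93, 2.46 and 2.96 (change -0.24, SE 0.27). These immunoproteasome subunits had the same 3 arrays high as Tap1, namely RG@M-γ-CD replicate 2, PBS replicate 1 and PBS replicate 3. Psmb10, the remaining subunit, varied little: 5.66, 5.89 and 5.81 against 5.68, 5.88 and 6.0 (change -0.07, SE 0.16). Tapbp, which holds the heavy chain at the transporter, read 5.04, 4.95 and 4.75 against 5.05, 4.97 and 4.98 (change -0.09, SE 0.15). Tapbpl, Psme1 and Erap1 had changes of -0.16, -0.06 and 0.03.

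Nlrc5, the class I transactivator, had the largest change of the 44 members by size, -0.79, and its SE of 0.70 was nearly as large. It read -2.07, -0.25 and -1.99 in RG@M-γ-CD and 0.19, -1.91 and -0.24 in PBS. The arrays thus fell into a high set (RG@M-γ-CD replicate 2, PBS replicates 1 and 3) and a low set that cut across the treatment.

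**Figure D3:**
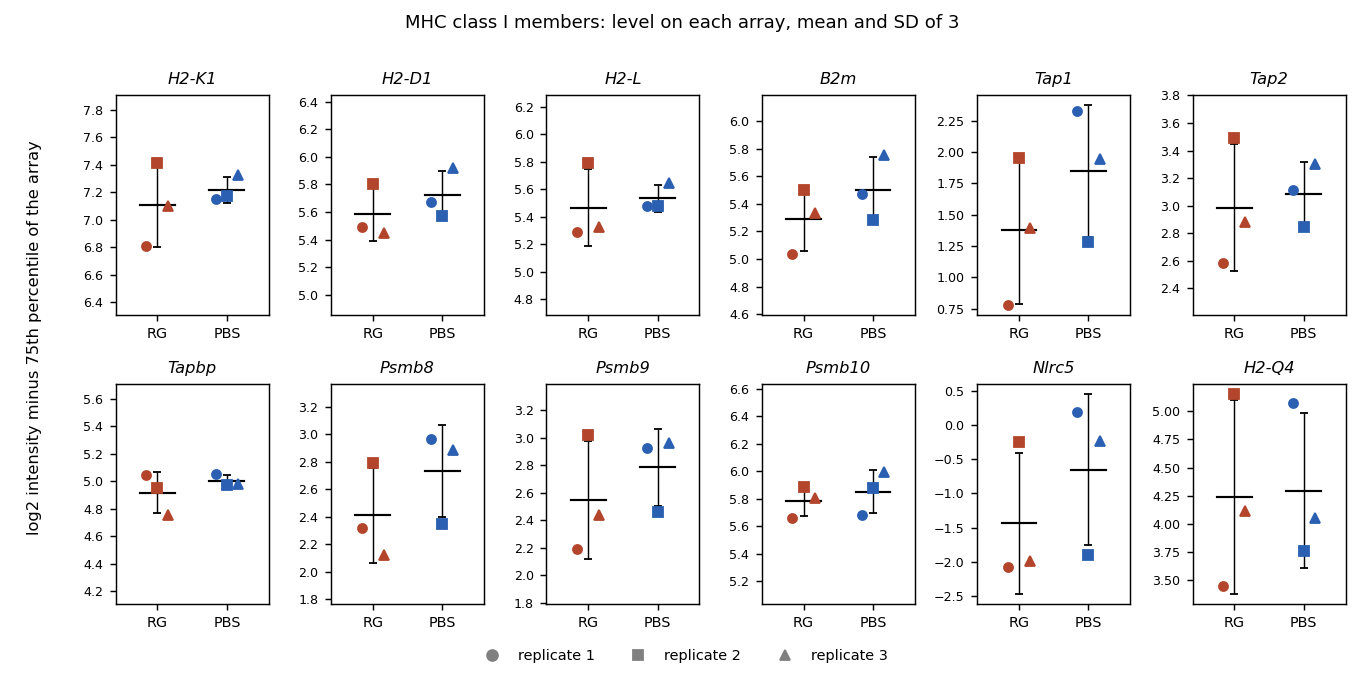
Level of 12 MHC class I genes on each array (log2 intensity minus the 75th percentile of the array, each panel with its own axis), by group, with the symbol giving the replicate number, a bar at the mean and whiskers of 1 SD of 3 arrays. The groups overlap in every panel, and in Nlrc5, Tap1, Psmb9 and H2-Q4 RG@M-γ-CD replicate 2 and PBS replicate 1 are among the high points of their groups.

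Of 28 nonclassical class I names, 16 were tested and all had changes below 0, between -0.45 for H2-Q5 and -0.01 for H2-Q1. H2-Q4, a Qa family gene whose promoter is shown above, was at 3.45, 5.16 and 4.11 in RG@M-γ-CD and at 5.07, 3.76 and 4.06 in PBS (change -0.06, SE 0.52). Its highest array was RG@M-γ-CD replicate 2 and its lowest RG@M-γ-CD replicate 1, so that its range lay within 1 group. H2-T23, which encodes the Qa-1 molecule read by NK cells, had a change of -0.05 (SE 0.18), and H2-M3, which presents formylated peptides, of -0.08 (SE 0.18). Several of these genes cannot be kept apart: the H2-Q7 probes also list H2-Q9, the H2-Q8 probe H2-Q6, the H2-T9 probe H2-T22, and 1 of 2 H2-T23 probes H2-T-ps. An H2-L and an H2-T23 probe were the same in 88.9% of 54 overlapping bases.

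The 12 nonclassical names not tested were H2-M1, H2-M5, H2-M9, H2-M11, H2-T18, H2-T24 and the 6 H2-M10 genes, which are known from the vomeronasal organ. H2-M10.1 and H2-T24 were well above background on 1 of 6 arrays and the others on 0 of 6. Cd1d1, which presents lipids to NKT cells, read 2.12, 2.10 and 1.92 in RG@M-γ-CD and 2.23, 2.08 and 2.13 in PBS (change -0.10, SE 0.15). H2-Ke6, a dehydrogenase gene of the MHC region with no part in antigen presentation, had a change of 0.15 (SE 0.17).

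**Figure D4:**
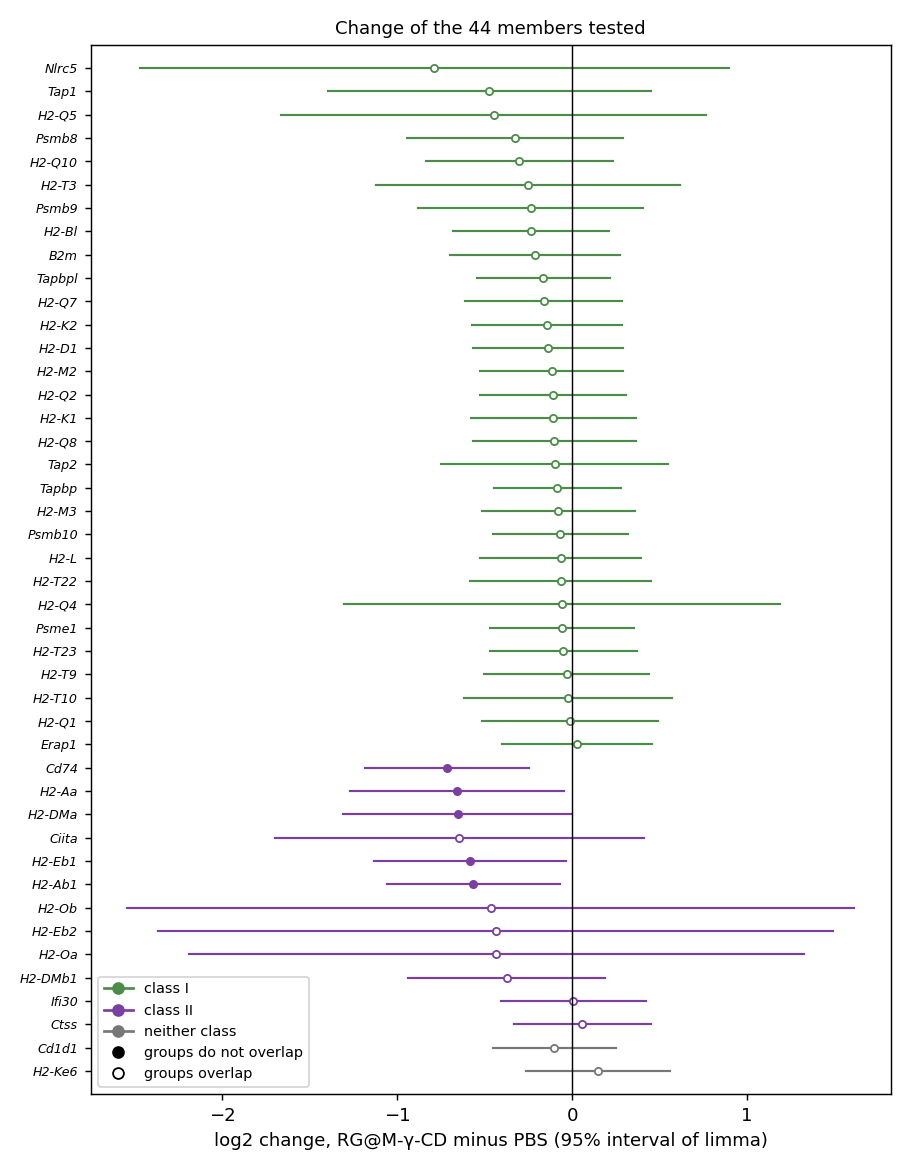
Log2 change of each of the 44 tested genes, RG@M-γ-CD minus PBS, with its 95% interval from limma, in green for class I, purple for class II and grey for neither; filled points mark genes whose groups do not overlap. Filled points occur only among the class II genes shown (Cd74, H2-Aa, H2-DMa, H2-Eb1 and H2-Ab1), while the class I points from Nlrc5 at -0.79 to Erap1 at 0.03 all have intervals across 0.

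The classes were therefore set side by side on each array, as the median deviation of their genes from each gene's own mean over 6 arrays. For class II it was -0.24, -0.35 and -0.33 in RG@M-γ-CD and 0.79, 0.14 and -0.00088 in PBS. For class I it was -0.27, 0.24 and -0.15 against 0.06, -0.08 and 0.22. On RG@M-γ-CD replicate 2 the medians lay on opposite sides of 0, by small margins the lowest of class II and the highest of class I. Gene by gene, this array had the top level in 14 of 30 class I genes, and in class II the lowest level in 2 of 12 genes and the highest in 2. RG@M-γ-CD replicate 1 had the lowest level in 20 of the 30. Genes of a class are not replicates, and the difference between the classes was not tested.

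**Figure D5:**
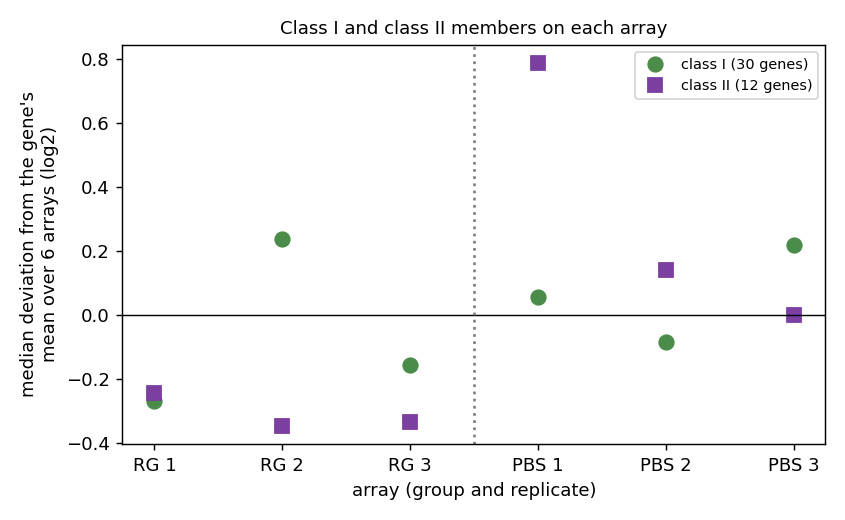
Median deviation (log2) of 30 class I genes (green circles) and 12 class II genes (purple squares) from each gene's own mean over 6 arrays, for each array. Class II is below 0 on all RG@M-γ-CD arrays and highest on PBS replicate 1 (0.79), while class I lies highest on RG@M-γ-CD replicate 2 (0.24) and PBS replicate 3 (0.22).

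Interferon target genes outside the MHC were lower as well. All 18 of the list (guanylate-binding proteins, immunity-related GTPases, interferon-induced chemokines and antiviral genes) had changes below 0, with a median of -0.56, and 4 had an unadjusted p under 0.05, against 1.33% of all genes. Ifit1, an antiviral RNA-binding protein, read -0.96, -0.69 and -0.67 in RG@M-γ-CD and -0.03, -0.24 and 0.62 in PBS (change -0.89, SE 0.25). Socs1, a brake on interferon signaling, read -0.19, -0.50 and -0.45 against 0.97, -0.11 and 0.48 (change -0.83, SE 0.29). Ifit3 also had groups that did not overlap, and Irgm1 was the other gene under 0.05. The mean level of the list was 0.01, 0.66 and -0.02 in RG@M-γ-CD and 1.14, 0.17 and 1.17 in PBS, with the same high arrays as Nlrc5, Tap1 and Psmb9. None passed after adjustment, and their part in the MHC values was not tested.

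Of 34 other genes of the pathway, all tested, 29 had changes below 0 (52.8% of all genes) and 5 above, with a median of -0.11. In 2 of them, Pdia3 (change -0.21) and Cd40, the groups did not overlap with RG@M-γ-CD the lower, against 2.19% of all genes. Ifng, the gene of interferon gamma, had a change of 0.58 (SE 0.59). The factors that bind the X and Y boxes had changes from -0.16 for Nfyb (SE 0.26) to 0.23 for Rfxank (SE 0.23), with Rfx5 at 0.01 (SE 0.28), Rfxap at -0.07 (SE 0.19), Nfya at -0.03 (SE 0.17) and Nfyc at -0.05 (SE 0.14) between them. Irf1, an interferon-induced transcription factor, had a change of -0.20 (SE 0.18). Fcgrt, the Fc receptor that carries IgG across epithelium, was the 1 gene under an unadjusted p of 0.05 and was higher: 0.70, 0.79 and 0.99 in RG@M-γ-CD against 0.00, 0.58 and 0.10 in PBS (change 0.60, SE 0.20, unadjusted p = 0.0238, limma). In this direction 0.864% of all genes were under 0.05 and 2.38% did not overlap. Cd40 and Cd86, costimulators on antigen-presenting cells, had changes of -0.89 (SE 0.39) and -0.69 (SE 0.31), and only for Cd40 of this pair did the groups not overlap.

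By the threshold of the methods' t-test (p of 0.05 and a fold of 2), 0.236% of all genes and 0 of the 44 members were called. Leaving out any single array kept the sign of the 5 class II genes with groups apart. This holds by construction, because groups that do not overlap keep their order when an array is removed. The size of the changes was not kept. Without RG@M-γ-CD replicate 2, the array that stood furthest apart, these 5 had changes of -0.67 to -0.55. Without PBS replicate 1 the changes were -0.56 to -0.35, and 1 of them kept an unadjusted p under 0.05 (Cd74, 0.0214, limma). In that setting 1.45% of all genes were lower under 0.05. Against PBS replicate 1 alone, the PBS array in the slide row of the RG@M-γ-CD arrays, the 5 changes were -1.24 to -0.96. That array was the highest of all in each of these genes, so the comparison enlarges the changes and rests on 1 control array. With the labels of RG@M-γ-CD replicate 1 and PBS replicate 1 exchanged, the class II median was 0.085, and Cd74 had a change of -0.12 (SE 0.33, unadjusted p = 0.722, limma). The class II result thus rests on the labels of these arrays.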

How the data were processed

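Total RNA of colon tissue with tumors was labeled with Cy3 and hybridized to one-color Agilent arrays (3 RG@M-γ-CD, 3 PBS), scanned on 1 slide, 6 arrays in all. The deposited scanner files hold the processed intensity of each spot, which the authors obtained with Agilent Feature Extraction (version 10.7.1.1, per the labels). The deposited value table holds log2 values, the same arrays after a between-array step by the authors; each column has the same minimum and maximum and the step, its centring and its scale are not given in the sources used here. It served as an alternative.

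Control spots and spots marked as outliers (114 to 168 per array) were left out, 0 were saturated, and 49.6% to 55.2% of gene probes were well above background on an array. log2 intensity minus the 75th percentile of the array was fitted with limma (version 3.58.1, R 4.3.3; lmFit, eBayes) on the brightest probe of each gene that was well above background on all arrays of a group. p-values were adjusted by Benjamini-Hochberg over 19090 genes at a threshold of 0.05, and were two-sided. Groups of 3 against 3 allow an exact permutation p of 0.10 at best, so no single value was tested that way. The fit was tested on simulated data. Alternatives were quantile normalization, normexp with an offset of 50, the value table, other filters on dim probes, probes averaged per gene, spots marked as outliers retained, a block for the replicate number or the slide row, the methods' t-test, the labels of 2 arrays exchanged, and each array left out. Probes were named by their RefSeq accession (GRCm38.p6) and otherwise by the name in the file, and members were picked by the name in the file. All values of single arrays were given for the classical class I genes, B2m, Tap1, Tap2, Tapbp, Psmb8, Psmb9, Psmb10, Nlrc5, Cd1d1 and the class II genes, and others by range. RefSeq promoters were matched by gene symbol and probe sequences were taken from the scanner files. The members, gene lists and motifs were chosen with earlier results of these data known, and some items of the lists and motifs are not reported here. Cell type marker lists that the report does not describe are given in the closing section.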

Additional observations from a re-analysis of the deposited data

How the results depend on the processing

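No member passed an adjusted p of 0.05 under any alternative. Over all genes, 168 passed without RG@M-γ-CD replicate 1, where 2270 were under an unadjusted p of 0.05, against 0 and 419 as reported; with the labels exchanged it was 0 and 3012. The number of class II genes lower in RG@M-γ-CD at an unadjusted p under 0.05, which was 5 as reported, was 2 with quantile normalization, 2 in the deposited value table, 2 by the t-test of the methods, 3 with no filter on dim probes and 4 with normexp. Of all genes, 0.98% to 1.19% were lower at that threshold under these alternatives. Leaving out an array in turn gave 1 to 8 such genes, with 0.686% to 5.66% of all genes lower. It gave 8 to 12 class II genes below 0, with class II medians from -0.78 to -0.22. For class I it gave 19 to 29 genes below 0, with medians from -0.25 to -0.05, and 0 to 1 genes under 0.05. The 1 was H2-Q5, without RG@M-γ-CD replicate 2, where 1.56% of all genes were lower. With the slide row as a block the class II median was -1.10. The second row held PBS arrays only, so this too rests on PBS replicate 1 as the only control. With the labels of RG@M-γ-CD replicate 1 and PBS replicate 1 exchanged, the class II median was 0.085, and H2-Ab1, H2-Eb1 and H2-DMa turned to 0.036, 0.092 and 0.075. In that setting 2 class II and 8 class I genes were below 0. Under an unadjusted p of 0.05, 0 class II genes were lower, and 1 class I gene was lower (H2-T3) and 1 higher (H2-Q4). Of all genes, 8.72% were lower and 7.06% higher at that threshold with the labels exchanged. The cause of these differences was not tested.

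The replicate numbers did not pair the arrays: deviations from the group means of same-numbered arrays correlated at -0.25, -0.23 and 0.14. With the replicate block, 4 class II genes were lower under 0.05, against 1.5% of all genes, and the class II median stayed at -0.52. A class I change of the size of the class II median lay inside the 95% interval of 23 of the 30 class I genes tested, so its absence is not shown. Paralogs that share a probe were not resolved.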

Other observations

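Other cell type lists varied over the same arrays. The neutrophil list (5 of 5 tested, 4 lower) had a mean level of 2.60, -0.15 and 0.40 in RG@M-γ-CD and 2.49, 1.70 and 2.58 in PBS, so that RG@M-γ-CD replicate 1 was as high as PBS. The smooth muscle list (5 of 5, all higher) read 2.65, 5.36 and 5.74 against 3.83, 3.40 and 3.75. The T cell list (7 of 8 tested, all 7 lower) had a median change of -0.63. It had 1 gene under an unadjusted p of 0.05, Cd3g at -0.64 (SE 0.25), against 1.33% of all genes lower. The NK and cytotoxic list had 3 of 4 tested genes lower (median -0.39). Medians of the remaining lists were 0.05 for plasma cells, -0.03 for fibroblasts and 0.32 for endothelium. In the endothelium list Tek was higher at an unadjusted p under 0.05, against 0.864% of all genes. Neither Cd3g nor Tek passed after adjustment. In the lists of cells from outside the colon wall, 2 genes each were tested: the median was -1.96 for exocrine pancreas, with Prss2 at -4.08 (SE 0.96), -0.51 for liver and -0.30 for skin. Their part in the MHC values was not tested.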
